A study of Homo sapiens with 16 samples.

Results

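All-trans retinoic acid (ATRA) given alone to MDA-MB-231 breast cancer cells was compared with its vehicle, DMSO. The comparison used the 2 arrays labelled ATRA and the 2 labelled DMSO, of 16 arrays in the series, and it paired arrays by their replicate number. MDA-MB-231 is an established cell line from a human breast carcinoma, mesenchymal in character and without the estrogen receptor. All arrays came from this line, grown in DMEM with 10% serum and treated for 48 h, so 1 line, 1 ATRA dose (1 µM) and 1 time are described. The other 6 groups, of 2 arrays each, held entinostat at 2.5 µM, doxorubicin at 0.2 µM, these drugs together, and each of those 3 treatments with ATRA at 1 µM. Replicates are numbered, but no label says whether they were grown as separate cultures, and the p-values below therefore reflect a spread between samples that may be technical.

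Retinoic acid, the active derivative of vitamin A, binds the retinoic acid receptors RARA, RARB and RARG. These pair with retinoid X receptors on DNA at repeats of a hexamer core and turn from repressors to activators when the ligand binds. Cells limit the signal by inducing enzymes that remove retinoic acid or its precursor, such as the CYP26 hydroxylases and the retinaldehyde reductase DHRS3. In many epithelial cells retinoic acid promotes differentiation, while RARB is often silent in breast cancer lines.

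Each array gave 1 intensity per gene name, already background-subtracted on deposit, and a detection p-value. Between 11402 and 12748 genes were detected per array at a detection p below 0.05, and 17126 genes detected on at least 2 of the 16 arrays were tested. Of 13 markers of this line, 12 or 13 were detected on each of the 4 arrays of ATRA and DMSO, and of 9 markers that the line should lack, 1 or 2 were detected, the epithelial adhesion gene EPCAM on all 4. Of 19 markers of blood, endothelium, fibroblasts and fat, 3 and 4 were detected on DMSO replicates 1 and 2, and 4 and 8 on ATRA replicates 1 and 2. Over all named genes, 36.4% to 39.0% were detected on these 4 arrays. The summed signal of the 19 markers was 684.9 and 650.8 in DMSO and 814.0 and 791.7 in ATRA. PTPRC, CD3E, HBA1, DCN and LUM were detected on 0 arrays, while others were detected, such as CD14 on 2 of the 4. The part of such cells in the results was not tested.

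ATRA raised a small set of genes, and no gene passed the test in the other direction. In a limma fit of all 16 arrays with the replicate number as a block, 10 of 17126 genes rose (0.0584%) and 0 fell at a Benjamini-Hochberg adjusted p below 0.05. At an unadjusted p below 0.05, 368 genes were higher (2.15%) and 263 lower (1.54%). With no change in any gene, a share of 0.05 would be expected at this limit. These and the later counts over all genes at this limit lie below that share. They are therefore no sign of a wider response. The 10 genes were DHRS3, PTGES, C9ORF169, IGFBP6, TGM2, LOC731486, NRIP1, TINAGL1, C4BPB and SMOX, by size of the change. The call depended on the fit and on single arrays: 4 genes (C9ORF169, DHRS3, IGFBP6 and TGM2) remained without the block, and 0 with normexp fitted from the detection p-values (622 genes at an unadjusted p below 0.05). The count was 24, all higher, with only the 8 arrays without doxorubicin, an alternative chosen after seeing the data, and 135, of them 109 higher and 26 lower, with only the 4 arrays compared. Without ATRA replicate 2 the calls were C9ORF169, DHRS3 and TGM2, without DMSO replicate 1 the call was C9ORF169, and without ATRA replicate 1 or DMSO replicate 2 the count was 0 (617 and 610 genes at an unadjusted p below 0.05). Both ATRA arrays lay above both DMSO arrays for all 10 genes, a pattern shared by 2522 genes in all (14.7%), while 2526 had both below (14.7%). The changes of all 10 genes were positive under every setting tried. Since RNA came from bulk cultures, a change in the share of cells expressing a gene and a change in RNA per cell cannot be told apart.

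The start regions of several of these genes, and of RARB and CYP26A1, the best known direct targets, were searched for the hexamer that the receptors can bind. Binding was not measured, so a marked hexamer is a match in sequence only. Windows of 250 bases before to 50 after a gene's start were taken from RefSeq (GRCh38.p14) and searched on both strands for the hexamer AGGTCA, its variant AGTTCA, the variant GGGTCA and the variant GGTTCA. A DR5 is a pair of these hexamers on the same strand with 5 bases between them. Capitals mark the DR5 in the first pair of windows and 1 hexamer in the others. The windows are chr3:25428013-25428312 (plus strand) for RARB, chr10:93073643-93073942 (plus strand) for CYP26A1, chr1:12616740-12617039 (minus strand) for DHRS3, chr21:15065887-15066186 (minus strand) for NRIP1 and chr1:207088989-207089288 (plus strand) for C4BPB.
RARB: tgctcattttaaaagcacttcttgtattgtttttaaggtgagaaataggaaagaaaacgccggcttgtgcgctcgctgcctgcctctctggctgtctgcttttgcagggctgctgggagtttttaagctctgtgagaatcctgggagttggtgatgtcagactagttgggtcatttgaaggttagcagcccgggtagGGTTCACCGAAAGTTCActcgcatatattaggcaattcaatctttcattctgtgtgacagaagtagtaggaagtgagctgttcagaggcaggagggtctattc
CYP26A1: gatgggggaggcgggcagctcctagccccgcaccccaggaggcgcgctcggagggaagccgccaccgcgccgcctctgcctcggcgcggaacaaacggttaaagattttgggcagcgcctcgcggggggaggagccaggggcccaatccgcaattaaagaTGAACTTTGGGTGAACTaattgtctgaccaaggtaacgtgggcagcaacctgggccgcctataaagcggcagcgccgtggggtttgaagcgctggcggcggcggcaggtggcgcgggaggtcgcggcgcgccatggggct
DHRS3: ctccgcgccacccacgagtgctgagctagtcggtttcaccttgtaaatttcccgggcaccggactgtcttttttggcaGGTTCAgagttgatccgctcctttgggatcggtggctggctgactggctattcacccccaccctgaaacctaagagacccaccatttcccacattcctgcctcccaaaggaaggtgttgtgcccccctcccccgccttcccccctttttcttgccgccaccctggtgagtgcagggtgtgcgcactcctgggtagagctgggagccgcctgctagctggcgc
NRIP1: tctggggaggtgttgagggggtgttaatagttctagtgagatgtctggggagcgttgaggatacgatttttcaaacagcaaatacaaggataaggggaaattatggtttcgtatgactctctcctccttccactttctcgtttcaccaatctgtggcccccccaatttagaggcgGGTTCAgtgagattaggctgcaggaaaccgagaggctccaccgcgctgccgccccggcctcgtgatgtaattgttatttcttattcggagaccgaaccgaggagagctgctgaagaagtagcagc
C4BPB: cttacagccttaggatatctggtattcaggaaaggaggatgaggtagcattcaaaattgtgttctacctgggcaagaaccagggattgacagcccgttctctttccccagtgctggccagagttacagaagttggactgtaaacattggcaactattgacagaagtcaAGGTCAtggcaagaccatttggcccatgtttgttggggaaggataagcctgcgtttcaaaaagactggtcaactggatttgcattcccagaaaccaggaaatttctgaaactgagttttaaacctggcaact
The DR5 of RARB starts 53 bases before the gene's start. That of CYP26A1 is read on the minus strand, and its base farthest from the gene's start lies 90 bases before it. Over 35116 windows of 27305 genes, a DR5 was found in 0.0883% of windows and a hexamer in 38.6%. Counted by gene, 11923 of the 27305 had a hexamer in any of their windows. Of the 10 genes that rose, 7 had windows in the RefSeq table, and none of these windows held a DR5 or a repeat with 1 or 2 bases between the hexamers. Elements outside the windows, or with other hexamers, were not searched for, so this does not show that the genes lack them. A hexamer was found in windows of DHRS3, NRIP1 and C4BPB, 172, 75 and 82 bases before the start in the windows shown. TGM2, SMOX and LOC731486 had none in the table. Of the 29 genes with a DR5, 5 were tested, 0 were called, and their median log2 change under ATRA was 0.05.

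The 2 genes whose DR5 is shown lay at background. RARB, a receptor gene that retinoic acid induces in many cells, had signals of -8.8 and -2.9 in DMSO and -1.5 and -0.2 in ATRA, replicate 1 before replicate 2. It was detected on none of these 4 arrays, and its log2 change was 0.11 (SE 0.12). CYP26A1, which hydroxylates retinoic acid for removal, was detected on 0 of 16 arrays and was not tested. Its signals were 0.1 and 1.2 in DMSO and -4.9 and 3.0 in ATRA. At these arrays' background such values do not show that the genes were silent.

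DHRS3, which reduces retinaldehyde back to retinol, changed most. Its signal was 19.4 and 32.3 on the DMSO arrays and 500.8 and 520.6 on the ATRA arrays. The groups lay far apart and the ATRA arrays differed little from each other. On the log2 scale of the offset signal the change was 2.61 (SE 0.29, adjusted p = 0.00158 in limma), a 6.13-fold rise, with 2.69 in replicate pair 1 and 2.54 in pair 2. Folds here are on the scale of the signal plus an offset of 50, which understates the change of dim genes. Without the block the adjusted p was 0.0141, and with 1 array left out it ran from 0.0413 to 0.111.

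C9ORF169, an older symbol of CYSRT1, which encodes a cysteine-rich protein, had signals of 92.5 and 37.6 in DMSO and 459.6 and 346.0 in ATRA. Replicate 1 was the higher array in both groups, and the groups did not overlap. The log2 change was 1.84 (SE 0.20, adjusted p = 0.00158), or 3.57-fold. PTGES, the inducible microsomal prostaglandin E synthase, read 142.2 and 100.5 in DMSO against 865.9 and 653.6 in ATRA. This 4.34-fold rise (2.12, SE 0.34) came from changes of 2.14 and 2.09 in the replicate pairs. Its adjusted p was 0.0395 with the block, 0.124 without it, and 0.431 to 0.739 with an array left out.

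IGFBP6, a secreted protein that binds insulin-like growth factors, had signals of 235.1 and 171.3 in DMSO and 729.0 and 585.6 in ATRA, a 2.68-fold rise (1.42, SE 0.18, adjusted p = 0.00396). TGM2, tissue transglutaminase, which crosslinks proteins and is a classic retinoid-induced gene, read 379.7 and 438.6 against 1254.0 and 1066.8. It rose 2.57-fold (1.36, SE 0.17, adjusted p = 0.00396), by 1.56 in pair 1 and 1.15 in pair 2. NRIP1, also called RIP140, is a corepressor that binds liganded nuclear receptors. Its signals were 36.6 and 49.6 in DMSO and 156.3 and 148.2 in ATRA, and it rose 1.97-fold (0.98, SE 0.15, adjusted p = 0.0228, and 0.05001 without the block). For each of these genes every ATRA array lay above every DMSO array.

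Of the remaining 4 calls, 3 had the smallest changes of the 10, and LOC731486 lay between TGM2 and NRIP1. LOC731486, a name with no match in the RefSeq gene table, had signals of 320.2 and 400.8 in DMSO and 872.2 and 928.7 in ATRA (2.26-fold, log2 change 1.18, SE 0.16, adjusted p = 0.00989). TINAGL1, a secreted matrix glycoprotein, read 18.0 and 35.0 against 70.2 and 122.8 (1.72-fold). C4BPB, the beta chain of the complement regulator C4b-binding protein, read 367.0 and 275.6 against 570.5 and 592.6 (1.68-fold), with 0.55 in pair 1 and 0.95 in pair 2. SMOX, which oxidises spermine, read 26.2 and 34.9 against 83.5 and 104.1 (1.63-fold). TINAGL1 and SMOX were each detected on 3 of the 4 arrays. The groups did not overlap for any of the 4. The last 3 shared an adjusted p of 0.0395, and without the block the 4 adjusted p-values ran from 0.262 for SMOX to 0.575 for C4BPB.

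**Figure D1:**
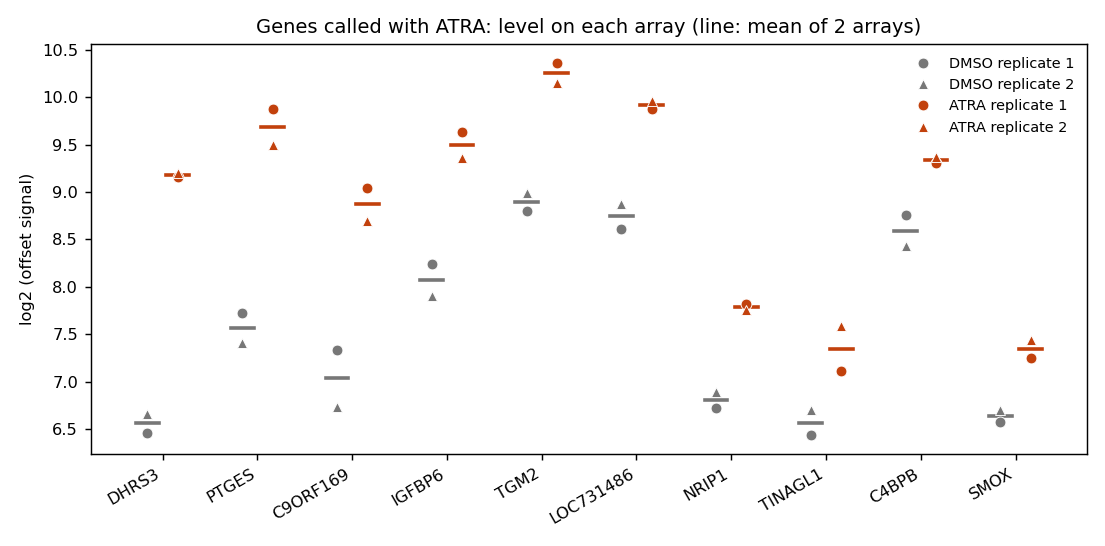
Level of the 10 genes that rose, on each DMSO (grey) and ATRA (orange) array, as log2 of the offset signal after quantile normalization. Circles are replicate 1, triangles replicate 2 and lines the mean of 2 arrays, and for every gene both ATRA points lie above both DMSO points.

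Judged by size alone, 42 of 17126 genes were at least 1.5-fold higher in both replicate pairs and 2 were lower by as much. At 2-fold in both pairs 9 were higher and 0 lower, and at 4-fold 2 were higher, DHRS3 and PTGES. Of the 9, 6 passed the test, and the other 3, named after their values were seen, were KRT81, SDPR and TIMP3. The hair keratin gene KRT81 had signals of 611.7 and 765.0 in DMSO and 2888.6 and 2317.3 in ATRA (log2 change 1.83, SE 0.48, adjusted p = 0.592). The metalloproteinase inhibitor gene TIMP3 read 259.5 and 203.1 against 833.1 and 917.5 (1.67, SE 0.45, adjusted p = 0.597), and the caveolar gene SDPR read 183.1 and 135.1 against 452.0 and 544.3 (1.31, SE 0.30, adjusted p = 0.335). All 3 were apart between the groups here, as were 14.7% of all genes in that direction. They were picked by their rise in both pairs, which favours such a separation. Their replicates differed in other groups that share the spread, such as TIMP3 at 272.9 and 1270.2 with entinostat and ATRA.

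**Figure D2:**
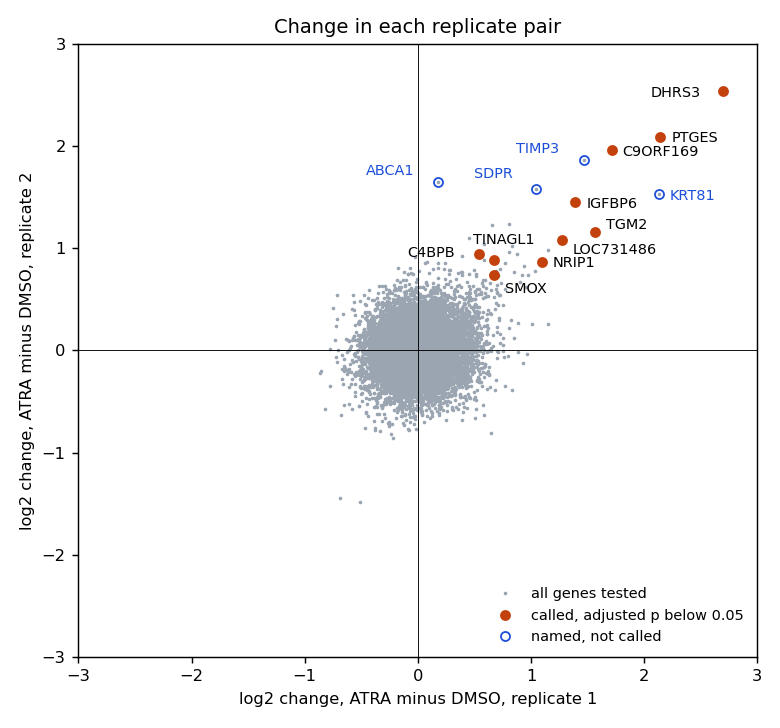
Log2 change, ATRA minus DMSO, in replicate pair 1 (x axis) and pair 2 (y axis) for the 17126 genes tested. Called genes are filled orange, and 4 genes that were named but not called are open blue circles; ABCA1 changed by 0.18 in pair 1 and 1.65 in pair 2.

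Retinoid metabolism was measured across 27 listed genes, of which 16 were tested, 1 rose (DHRS3) and 0 fell. Their median log2 change was 0.02, beside -0.01 over all genes tested. CRABP2, which carries retinoic acid into the nucleus, had signals of 223.6 and 242.9 in DMSO and 379.5 and 278.3 in ATRA, and its change of 0.39 (SE 0.14) did not pass the test. CYP26B1, a retinoic acid hydroxylase, read 65.9 and 93.5 against 66.3 and 87.5, so the groups overlapped. The enzymes that oxidise retinaldehyde to retinoic acid did not stand apart either: ALDH1A3 read 34.8 and 49.2 in DMSO and 29.7 and 45.7 in ATRA, and ALDH1A1 was detected on none of the 4 arrays. Among the retinol dehydrogenases, RDH11 had a change of 0.00 with signals of 1021.8 and 826.7 against 896.4 and 944.2, and the lowest value in the list was that of RDH13 (-0.26). Among those not tested because fewer than 2 arrays detected them were DHRS9, RDH16, CYP26A1, CYP26C1, CRABP1, RBP2, RBP4, STRA6, BCMO1 and BCO2.

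Among the receptors and their cofactors, 13 of 16 were tested and 1 rose, the corepressor gene NRIP1, while 0 fell (median 0.05). The receptor gene RARA read 58.1 and 81.8 in DMSO and 76.6 and 73.3 in ATRA. RARA was detected on 5 of the 16 arrays but on none of these 4. Its partner RXRA read 424.2 and 398.9 against 535.1 and 522.2, a change of 0.31 with an SE of 0.27. The coactivator and acetyltransferase genes CREBBP and EP300 had values of -0.20 and -0.14. RARG, RXRG and NCOA2 were detected on 0 arrays and were not tested.

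Of 36 listed retinoic acid targets, 22 were tested, 2 rose (TGM2 and IGFBP6) and 0 fell, with a median of 0.12 beside -0.01 over all genes. In both pairs 11 of the 22 were higher, against 24.0% of all genes, and 1 was lower, and 6 were higher at an unadjusted p below 0.05, against 2.15% of all genes. The list was chosen with earlier results of these data known, so these shares are a description and not a test. TGM2 and IGFBP6 are counted again below, among the transglutaminases and in the insulin-like growth factor system. RARRES3, a retinoid-induced phospholipase gene, read 37.7 and 17.3 in DMSO and 126.7 and 94.3 in ATRA (0.91, SE 0.19, adjusted p = 0.25). SMAD3, which transmits TGF-beta signals, read 454.0 and 455.2 against 678.3 and 695.3 (0.53). THBD, the anticoagulant receptor thrombomodulin, read 45.8 and 30.3 against 81.5 and 64.3 (0.40). These 3 did not overlap between the groups, as 14.7% of all genes did not in that direction, and they did not pass the test. The cholesterol exporter gene ABCA1 read 109.0 and 80.4 against 131.9 and 398.8, so its value of 0.91 rested on ATRA replicate 2. Of the listed homeobox genes, HOXB5 and HOXD4 were detected on all 4 arrays, with changes of -0.02 and 0.10, and MEIS1 had 0.04.

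**Figure D3:**
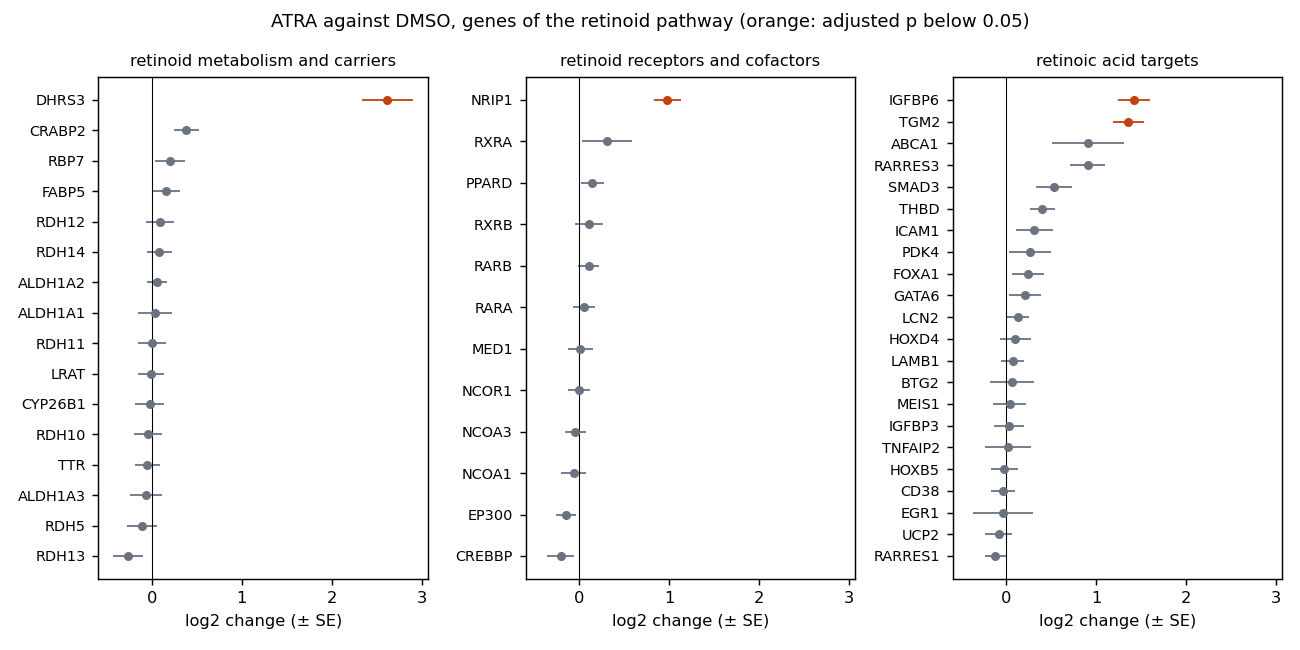
Log2 change under ATRA (x axis, with SE) of the tested genes of the 3 retinoid lists, except 1 that is not reported. The 4 filled orange points are DHRS3, NRIP1, IGFBP6 and TGM2, which passed the test, and most other points lie within 0.5 of 0.

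IGFBP6 was the member of the insulin-like growth factor system that moved, with 9 of 14 tested, 1 higher, 0 lower and a median of 0.13. The binding protein gene IGFBP3 read 251.3 and 245.4 in DMSO and 217.4 and 295.4 in ATRA, a change of 0.03, and IGFBP4 had 0.18. The adaptor gene IRS2, which couples the insulin and growth factor receptors to PI3 kinase, read 182.1 and 182.7 against 134.1 and 106.1 (-0.40, SE 0.16), not past the test. Of 8 transglutaminases 3 were tested, and beside TGM2 the keratinocyte forms TGM1 and TGM3 had -0.07 and -0.15. TGM1 and TGM3 were each detected on 1 of the 4 arrays, with no signal above 21.7 on them, so these values lie near background.

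The genes closest to the threshold were looked at by values only. KRT7, a keratin of simple epithelia, read 427.2 and 651.9 in DMSO and 1028.6 and 1363.0 in ATRA (1.07, SE 0.19, adjusted p = 0.0791). The claudin gene CLDN7 read 64.2 and 28.8 against 162.3 and 164.1 (1.02, adjusted p = 0.203), and GPRC5A, a retinoic acid-inducible receptor gene, read 96.7 and 122.0 against 239.5 and 237.4 (0.79, adjusted p = 0.25). TXK, a kinase gene of the Tec family, lay below background in DMSO, at -5.6 and -5.9, and read 25.6 and 46.0 in ATRA, at least 1.42-fold higher. C1ORF188 was at least 1.35-fold higher in the same way. NAV2 (0.63), LOC441453 (0.73), CALB2 (0.70) and IFFO2 (0.89) complete the 10 with RARRES3. On the other side GLRX, the glutaredoxin gene, had 1773.6 and 929.3 in DMSO and 977.9 and 598.3 in ATRA (-0.70, SE 0.15, adjusted p = 0.25). Its groups overlapped although both pairs went down. LOC644350 read 51.7 and 172.1 against 6.0 and 19.5 (-1.07). The other 8 lower genes (LOC650611, CMTM5, LOC100131390, SNORD43, UBE2QP2, MIR611, LTBP2 and KIAA1908) were dim, with no signal above 48.7 on the 4 arrays.

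The remaining lists held no called gene. Of 16 tested epithelial genes of 23, 0 passed and the median was -0.03. The 5 with an unadjusted p below 0.05, all higher, were KRT81, KRT7, CLDN7, KRT8 and ELF3, named after their values were seen, beside 2.15% of all genes. KRT8 had a change of 0.79 and the epithelial ETS factor gene ELF3 0.64. The claudin gene CLDN4, detected on 1 of the 4 arrays, was lowest at -0.21, and the adhesion gene EPCAM had -0.12. Of 19 tested mesenchymal genes of 24, 0 passed and the median was -0.17, from THBS1 at -0.54 (1538.9 and 1765.1 in DMSO, 1118.4 and 1091.5 in ATRA) to TGFBI at 0.83. Tumour-initiating cell markers (15 of 18 tested) had a median of -0.03, with the hyaluronan receptor gene CD44 lowest at -0.38 and LGR5, detected on 0 of the 4 arrays, highest at 0.06.

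Proliferation genes held no call. Of 31 tested G2/M genes of 32, 0 were called and the median was -0.02, from -0.22 for CDC20 to 0.23 for NEK2. The 29 tested of 30 DNA replication and G1/S genes had a median of 0.08, from -0.21 for CCNE1 to 0.22 for MCM5. Of the immune lists, interferon response (28 of 29 tested) had a median of 0.03, with IRF1 highest at 0.78 and IFI44L lowest at -0.27. Class I antigen presentation (16 of 19) had 0.11, from -0.17 for CANX to 0.39 for the immunoproteasome gene PSMB10. Inflammatory and NF-kB genes (21 of 22) had -0.02, from -0.43 for IL11 to 0.64 for IL1B, which was not above background in DMSO and was at least 1.35-fold higher in ATRA. Of 10 metallothioneins 6 were tested, with a median of 0.23, from -0.08 for MT1F to 0.51 for MT1G. Markers of other cell types (11 of 19) had 0.02, from -0.08 for PDGFRB to 0.73 for CD14, a monocyte receptor gene that read 58.1 and 44.2 in DMSO and 137.8 and 119.9 in ATRA and was detected on 2 of the 4 arrays.

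**Figure D4:**
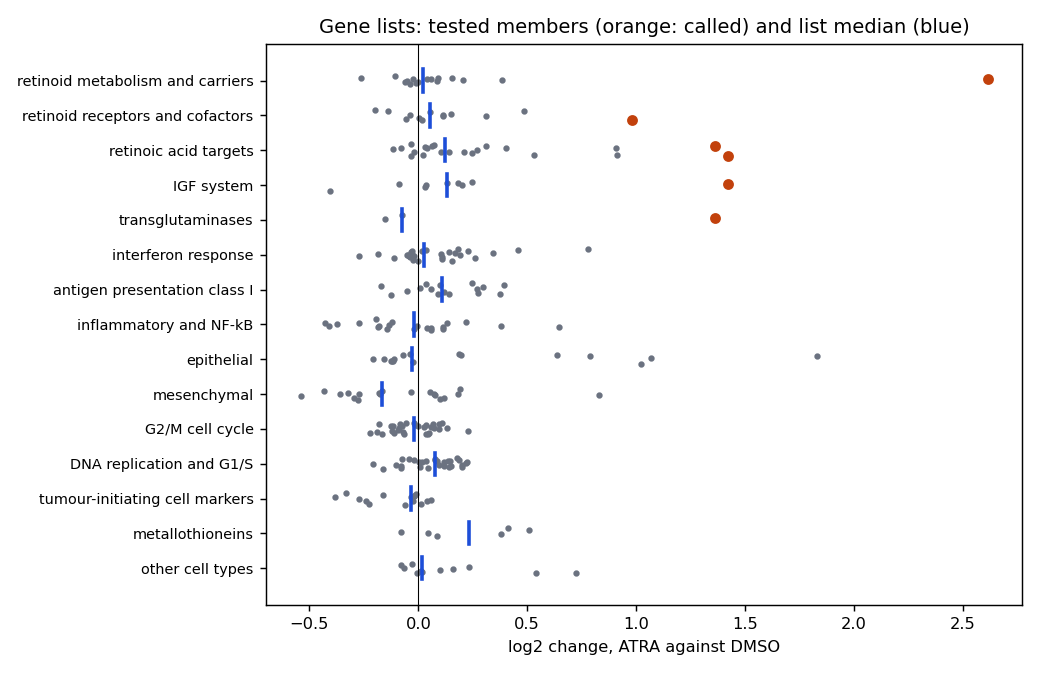
Log2 change under ATRA (x axis) of the tested members of 15 gene lists, with the median of each list as a blue bar. Filled orange points passed the test and occur in the first 5 lists, and the list medians lie between -0.17 and 0.23.

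The same genes were followed where ATRA was added to other drugs, on arrays that are in neither group of the comparison with DMSO, although they supply part of the spread in the shared fit. Added to entinostat, ATRA gave 8 calls (0.0467%): C9ORF169, TINAGL1, ELF3, DHRS3, FBXO32 and CPA4 rose (0.035%), and PTPRK and SPRY2 fell (0.0117%). Added to doxorubicin it gave 1 call (0.00584%), TXK, and added to both drugs 0, where 592 genes had an unadjusted p below 0.05. Leaving out 1 array moved the first count to 5 and 22 without replicates 1 and 2 of entinostat with ATRA, and to 2 and 3 without replicates 1 and 2 of entinostat. The count with doxorubicin was 49 without doxorubicin replicate 2 and 0 without replicate 1 or 2 of ATRA with doxorubicin. The count with both drugs was 2 without replicate 2 of entinostat with doxorubicin.

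All 10 genes that rose under ATRA alone had positive changes on each of these backgrounds. They were higher in both pairs in 10 of 10 cases with entinostat, 9 with doxorubicin and 8 with both, against 26.2%, 25.3% and 24.7% of all genes. At an unadjusted p below 0.05 they were higher in 10, 7 and 3 cases, against 2.66%, 2.12% and 1.61% of all genes. A gene's SE is the same on every background in the shared fit. Genes called partly for a small SE are therefore favoured at this limit, and these shares are not a like comparison. Their median change was 0.94, 0.54 and 0.26 in the same order. DHRS3 went from 20.9 and 37.5 in entinostat to 319.3 and 690.6 with ATRA, from 85.0 and 16.1 in doxorubicin to 232.4 and 234.1, and from 38.9 and 109.3 in both drugs to 241.1 and 350.2. It thus lay higher with ATRA on all 4 backgrounds without overlap. Across the 17126 genes, the mean change of 2 pairs under ATRA alone correlated at 0.255 with that on entinostat, 0.0734 on doxorubicin and 0.0516 on both. The 2 replicate pairs of ATRA against DMSO correlated at 0.126. That value compares single pairs, which are noisier than means of 2, so it is not on the scale of the other values. These correlations are descriptions over genes, which share the normalization and are not independent replicates.

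**Figure D5:**
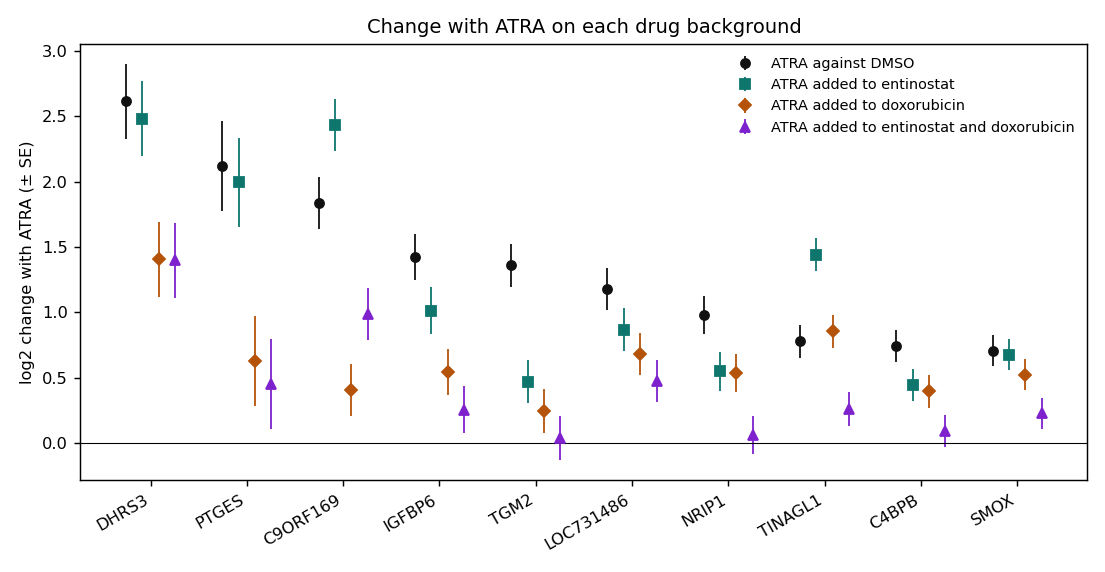
Log2 change with ATRA (± SE) of the 10 genes on 4 drug backgrounds, DMSO, entinostat, doxorubicin and both drugs. All 40 points lie above 0, and for 8 of the 10 genes the points on the other 3 backgrounds lie below that in DMSO, the exceptions being C9ORF169 and TINAGL1. The 10 genes were picked by their change in DMSO, so lower points elsewhere can follow from that choice.

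The estimated ATRA change was smaller or larger on another drug for some genes, but no difference passed the test, so none is established. Of 17126 genes, 0 differed from the change under ATRA alone on entinostat, doxorubicin or both in limma. At an unadjusted p below 0.05 there were 421, 602 and 562, each below the share of 0.05 expected if no gene differed. Without doxorubicin replicate 2 the count for doxorubicin was 22. TGM2 read 746.1 and 741.3 in entinostat and 839.0 and 1341.0 with ATRA, and 210.2 and 205.5 in doxorubicin against 235.3 and 292.3 with ATRA. With both drugs it read 350.9 and 316.7 against 334.9 and 353.2. Its estimated change minus that under ATRA alone was -0.89 (95% interval -1.39 to -0.38), -1.11 (-1.62 to -0.60) and -1.32 (-1.82 to -0.81). These intervals and those that follow are not adjusted for the number of genes. The 10 genes were picked by their change under ATRA alone, which is subtracted in each difference. Differences below 0 can follow from that choice alone. C9ORF169 had a difference of -1.43 on doxorubicin (-2.03 to -0.83), where it read 80.9 and 24.7 without and 124.7 and 57.8 with ATRA. TINAGL1 had an estimated difference of 0.66 on entinostat (0.28 to 1.05), with 35.4 and 35.3 without and 200.9 and 230.0 with ATRA. PTGES had -1.49 on doxorubicin (-2.52 to -0.45), and its arrays in doxorubicin alone were far apart, so pair 1 gave -0.33 and pair 2 1.59. SMOX had -0.03 on entinostat (-0.38 to 0.32), an interval that holds differences in either direction. The adjusted p of these differences was 0.982 or more for all 10 genes on each background.

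The genes nearest to the threshold were less even. Of the 10 higher ones, 10, 10 and 9 were positive on entinostat, doxorubicin and both, with median changes of 0.58, 0.32 and 0.29. TXK read 4.3 and 4.9 in doxorubicin against 81.2 and 97.7 with ATRA, where it was called. Of the 10 lower ones, 7, 1 and 5 were negative, with medians of -0.07, 0.12 and 0.01. The 5 genes called with entinostat but not in DMSO kept their sign in the comparison with DMSO: CPA4, a carboxypeptidase gene, read 117.6 and 118.0 in DMSO and 208.8 and 234.3 in ATRA (0.63), ELF3 had 0.64 and the ubiquitin ligase gene FBXO32 had 0.49. The phosphatase gene PTPRK had -0.43, and SPRY2, an inhibitor of growth factor signalling, read 1064.9 and 987.1 in DMSO and 680.7 and 663.1 in ATRA (-0.57).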

How the data were processed

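Total RNA of 16 samples was labelled with biotin and measured on Illumina arrays. The authors deposited linear intensities with 1 detection p-value per gene name and array, and a processed log2 table; per the submitters' processing notes limma was used. Not given in the sources used here are its role, the background step and how probes were summarised. The deposited intensity values ran from -26 to 22098.4, with 27.5% to 28.2% of each array below 0. The deposited p-values served as a filter (below 0.05 on at least 2 arrays). Spike-in controls (92), unnamed clusters (3270) and 4 empty entries were left out, and 117 genes with a mean signal above 100 failed the filter.

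In limma 3.58.1 (R 4.3.3), normexp with an offset of 50 corrected the background, and quantile normalization and log2 followed. The fit had 8 group means and the replicate number as a block (7 residual degrees of freedom), with Benjamini-Hochberg adjustment over 17126 genes. The pairing comes from the rule of the comparison. Replicate differences of ATRA and DMSO correlated at 0.301, and over 28 group pairs the range was 0.0194 to 0.424, with 26 above 0.1. Folds are lower bounds ("at least") where no array of the dimmer group was detected and its signals stayed under 22.5, or 3 noise SDs. The number of arrays limits the precision.

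Named were all called genes, the 10 higher and 10 lower uncalled genes with the smallest p and the same sign in both pairs, members of the retinoid, growth factor and transglutaminase lists, and the extremes of the other lists. Some listed genes are not reported here by name. The members and lists were chosen with earlier results of these data known. Alternatives were the offset (16), normexp from the detection p-values, the authors' log2 values, the filter, the block, the arrays in the fit, an intensity trend and each array left out. The fit was tested on simulated data. Sequences were read with Python 3.11.15. Of the tested names, 10919 matched a current RefSeq symbol, 2049 an older one and 4158 none.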

Additional observations from a re-analysis of the deposited data

Results flagged for a closer look

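The unnamed expressed sequence cluster HS.551538, which took no part in the comparisons, was detected on all 16 arrays and had signals of 348.4 and 444.5 in DMSO and 637.5 and 827.1 in ATRA. In a limma fit that also held the 1909 clusters passing the filter, its log2 change was 0.77 (adjusted p = 0.0411), with both ATRA arrays above both DMSO arrays, and it was the 1 cluster called. Its gene was not identified here.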

How the results depend on the processing

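For ATRA against DMSO, where 10 genes were called, the count fell to 0 when normexp was fitted from detection p-values, was 135 (109 higher, 26 lower) with only the 4 arrays compared, and 0 to 3 with an array left out. With no replicate block it was 4, so 6 of the calls need the pairing. With only the 8 arrays without doxorubicin, an alternative chosen after seeing the data, it was 24, all higher and including the 10. It lay between 7 and 11 under the other settings: offset 16, the authors' log2 values, no filter, the filter on 4 arrays and the trend. With no filter LTBP3 was added, at -0.6 and -2.3 in DMSO and 40.3 and 42.6 in ATRA but detected on 0 arrays.

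For ATRA added to entinostat (8 calls) the count was 4 with offset 16, 3 with the detection p-value fit, 78 with only the arrays compared, 24 without the doxorubicin arrays, and 2 to 22 with an array left out. For ATRA added to doxorubicin (1 call) it was 0 with the detection p-value fit, with no replicate block and with only the arrays compared, 2 with no filter, and 0 to 49 with an array left out. For ATRA added to both drugs (0 calls) it was 1 with only the arrays compared and 0 to 2 with an array left out. The differences by background had 0 calls, except 1 for both drugs with only the arrays compared and 0 to 22 for doxorubicin with an array left out. The other differences gave 0 in every fit run.

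No change of a called gene reversed. Of 102 named results not called, 30 passed the test under some setting, and all 30 did so with only the 4 arrays compared. Of these, 9 also passed with only the 8 arrays without doxorubicin and 1 with offset 16. Without passing, 84 of 1303 values moved by more than the pair spread and the SE. The causes were not tested. The fit of 4 arrays had 1 residual degree of freedom and used 1 spread for all genes, so its 135 calls take every gene as equally variable. The fit to the detection p-values gave a noise SD of 212 to 313, against 7.40 to 7.56 from negative signals. The normexp fit of the main setting gave 1.52 to 1.85, which lay below the value from negative signals.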

Other observations

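The 14 genes added when only the 8 arrays without doxorubicin were fitted, an alternative chosen after seeing the data, were all higher under ATRA. They included the keratin genes KRT81, KRT7 and KRT8, the claudin gene CLDN7, and the secreted matrix genes TGFBI, LOXL4 and CRISPLD2. TGFBI read 399.8 and 732.5 in DMSO and 812.8 and 1266.3 in ATRA, and its adjusted p was 0.0254 in that fit against 0.961 with all 16 arrays. For KRT81 the values were 0.00454 and 0.592. The membrane gene MYADM read 777.0 and 642.0 in DMSO and 1461.4 and 1385.4 in ATRA (0.93, adjusted p = 0.0349 and 0.392), and LOXL4, a collagen-crosslinking lysyl oxidase gene, read 66.4 and 35.7 against 206.5 and 110.4 (0.91). AFAP1L2, RARRES3, IFFO2, TXK, LOC441453 and CD14 made up the 14.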
